A study of Taeniopygia guttata with 39 samples.

Results

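The transcripts described here are the 100 of 26061 array rows whose level in HVC stood highest at 3 h of testosterone relative to all other times. HVC is a nucleus of the songbird forebrain that takes part in the control of song. It was taken from female canaries, adult and described as non-breeding, that lived under short days with 9 h of light and 15 h of dark, and its RNA was measured on Affymetrix arrays, 39 in all. Canaries are the species of the design text, but the labels give zebra finch as organism. The groups were an empty implant as control (5 arrays), testosterone for 1 h (6 arrays), 3 h (5 arrays), 8 h (5 arrays), 3 d (6 arrays), 7 d (6 arrays) and 14 d (6 arrays). The hormone came from a Silastic tube of 7 mm under the skin, and control females carried the same tube without hormone. The labels describe females at 7 d and 14 d as singing; those at earlier times and the controls as non-singing. Each array is labelled as a biological replicate with a number of its own.

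Testosterone enters cells and acts through the androgen receptor, or, after aromatase has turned it into estradiol, through estrogen receptors, which are transcription factors that bind DNA directly. In songbirds HVC neurons hold androgen receptors, and treated female canaries come to sing a male-like song. Transcripts that respond quickly to a hormone can pass through a short maximum before slower changes in cell growth and connectivity follow.

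Members were chosen from the measured values. Each log2 value was set against the median of its array (a centred level, so that 0 is the middle of the array), replicate 2 of the 3 h group was put aside, and the mean of each group was taken. The score of a row was its mean at 3 h minus the highest of the 6 other group means, and the 100 highest scores were taken after the rows of CDH19, RSPO1, CRYAB, RAMP3 and BIRC5 had been removed. Of these 5 genes, 4 would have ranked among the 100 (RAMP3 at rank 11, CDH19 at 24, CRYAB at 41 and RSPO1 at 51), so that under the other reading of the rule 96 rows remain. All differences between 3 h and other times below are therefore a description of the choice, and no test was made of them.

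The scores of the 100 transcripts had a median of 0.78 on the log2 scale, that is, a mean 1.72-fold above the highest other group mean (range 1.49-fold to 4.97-fold). Over all rows the median score was -0.25, and 9.36% of rows had their highest mean at 3 h. Just inside the limit lay ENSTGUT00000013308, ENSOANT00000030021 and ENSTGUT00000006916, each with a score of 0.57. Just outside it lay PIGK, which encodes a subunit of the transamidase that attaches glycolipid anchors to proteins, XM_002188874 and ENSTGUT00000011964, each with a score of 0.56. The limit thus cut through a dense part of the scale.

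The mean pattern was a narrow peak. Relative to control the median of the members was -0.04 (log2) after 1 h of hormone, 1.11 after 3 h and 0.03 after 8 h. The 3 h mean stood above the 8 h mean by a median of 1.05, above the 3 d mean by 1.03, above the 7 d mean by 1.12 and above the 14 d mean by 1.17. By 8 h the rise over 1 h had been lost to a median extent of 101.5%. The rule itself placed the 8 h mean below the 3 h mean. In 52 transcripts the 8 h mean was at or below the 1 h mean, a share similar to that of all rows (12743 of 26061). In 15 transcripts less than 70% of the rise was gone, with ENSTGUT00000013621 at the low end with 39.1%. The group that came next after 3 h was 8 h in 22 transcripts, 3 d in 21, 7 d in 17, control in 15, 14 d in 15 and 1 h in 10, and was thus spread over all times. Over all rows the highest other group was 14 d in 7503 of 26061, 8 h in 5294 and control in 4746. In 3392 rows it was 3 d, in 3143 rows 7 d and in 1983 rows 1 h.

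**Figure D1:**
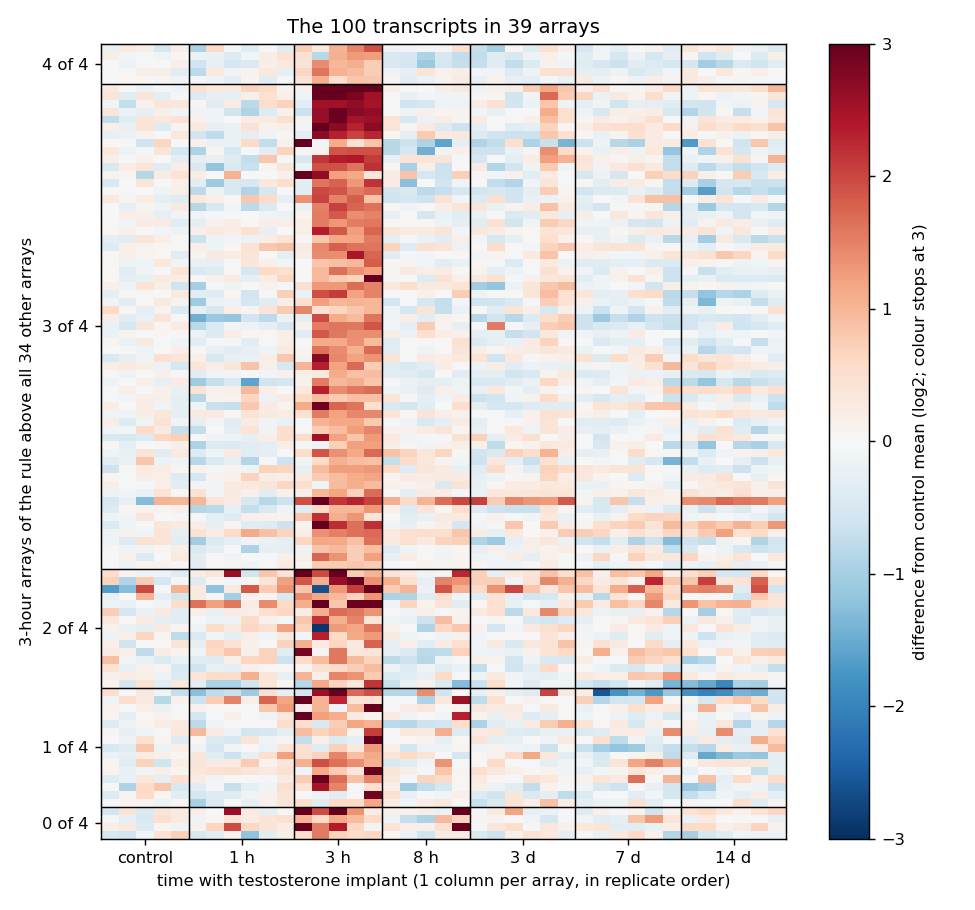
Level of each of the 100 transcripts (rows) on each of 39 arrays (columns, by time and in replicate order), as the difference from the control mean on the log2 scale, with colour stopping at 3. Rows are blocked by how many of the 4 arrays at 3 h that the rule used lay above all 34 arrays of other groups; in the large block of 61 rows replicates 2 to 5 at 3 h stand out, and replicate 5 at 3 d is the most coloured array of the other groups.

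The 3 h group was not uniform. Across the 100 transcripts the median level minus the control mean was 0.21, 1.24, 1.18 and 1.36 (log2) on the 3 h arrays of replicates 1, 3, 4 and 5. On all arrays of the other 6 groups it lay between -0.20 and 0.37. Replicate 1 was thus inside the range of the other groups in the median, and the remaining 3 arrays were clearly above it. Replicate 1 was the lowest of the 4 arrays in 75 transcripts and the highest in 10, and in 49 transcripts it was not above the highest other group mean. The label of a transient 3 h peak therefore describes group means, and in 56 of the 100 at least 1 of the 4 arrays was not above the highest other group mean. In tissue arrays of this kind, fewer cells of a type and less RNA per cell cannot be told apart.

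**Figure D2:**
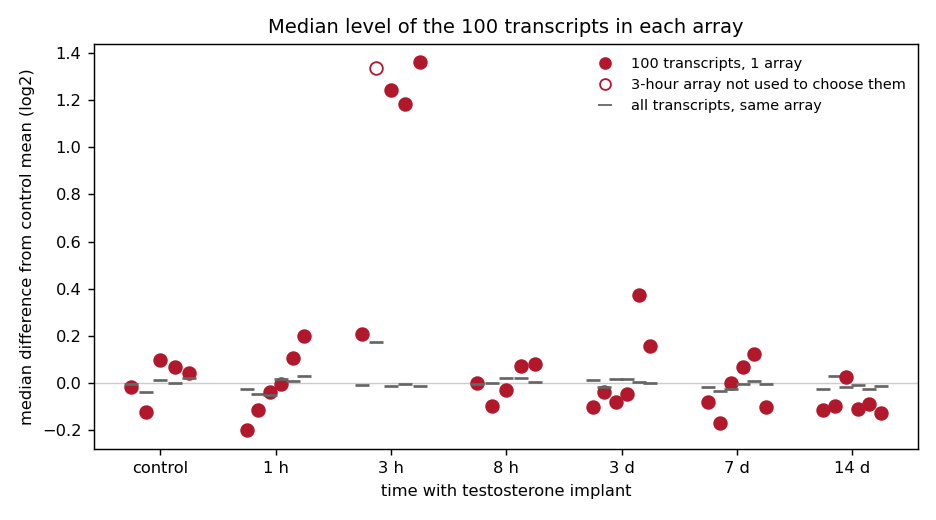
Median over the 100 transcripts of the level minus the control mean (log2), 1 filled point per array, with the 3 h array that the rule left out as an open point and the median of all rows on the same array as a dash. The 3 h arrays of replicates 3, 4 and 5 lie between 1.18 and 1.36, that of replicate 1 at 0.21 and the open point at 1.34, and the highest array of any other group is replicate 5 at 3 d with 0.37.

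The transcripts were sorted by how many of the 4 arrays at 3 h lay above each of the 34 arrays of other groups. All 4 did in 5 transcripts (0.0460% of all rows did so) and 3 of 4 in 61 transcripts (0.737% of all rows). In 54 of these 61 it was replicate 1 that was missing. A further 15 transcripts had 2 such arrays, 15 had 1 such array and 4 had none. In the group with 1 such array, replicate 5 stood alone in 7 transcripts, replicate 3 in 5, replicate 1 in 2 and replicate 4 in 1. In those 15 a single array exceeded all other groups, although in 6 of them all 4 arrays were above the highest other group mean.

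Replicate 2 at 3 h offers a look at the same transcripts in an array that the rule did not use. This array stands apart from the rest: its median correlation with the other arrays was 0.886, against at least 0.963 for the others, and many of its rows are displaced in both directions. Of the 100 transcripts, 86 lay on it above the highest mean of the 6 other groups, against 47.0% of all rows. The median distance from that mean was 1.01 for the 100 transcripts and -0.06 for all rows (log2). By more than 1, 51 of the 100 exceeded it, against 6.05% of all rows, whereas 2 of the 100 lay more than 1 below the lowest other mean, against 7.88% of all rows. Above all 34 other arrays lay 67 of the 100, against 32.9% of all rows. These are values of 1 labelled biological replicate, without a test. The highest other mean also entered the rule, so only the value on replicate 2 was apart from the choice. All rows were not matched to the members in signal or in spread.

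The transcripts did not all behave alike on that array. Among the 54 in which replicates 3, 4 and 5 were above all other arrays and replicate 1 was not, 52 were above the highest other mean on replicate 2, and 32 of them by more than 1. Among the 15 with a single array above all others, 10 were above it. XM_002198525 had the lowest value relative to the highest other mean, -3.62, followed by ENSTGUT00000006505, whose level was -0.91 on replicate 2 against 2.69 to 3.62 on the 4 arrays that the rule used.

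**Figure D3:**
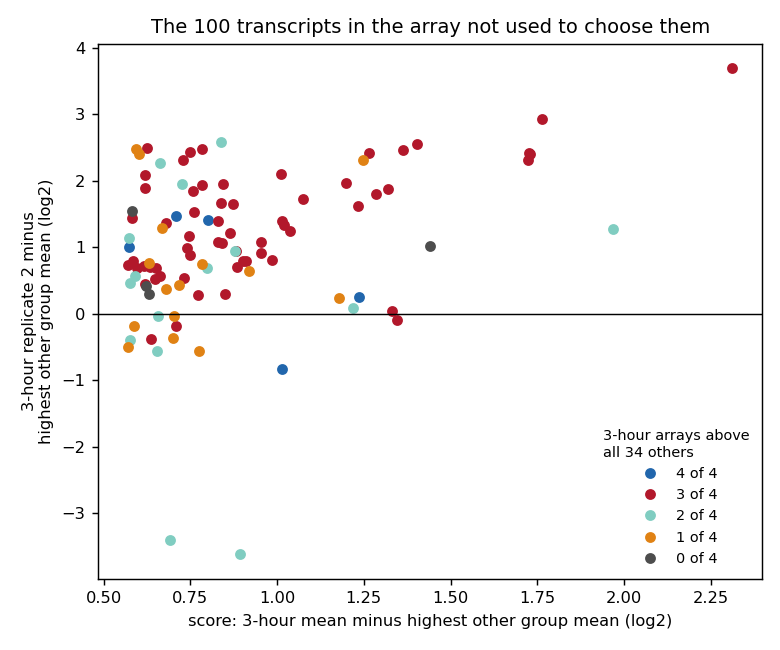
Each of the 100 transcripts by its score (horizontal axis, log2) and by its level on the 3 h array of replicate 2, which the rule did not use, minus the highest mean of the 6 other groups (vertical axis, log2), coloured by how many of the 4 arrays used lay above all 34 others. Of the 100 points, 86 lie above 0, with a median of 1.01, and 2 lie more than 3 below it.

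Only 7 of the 100 rows carry an official gene symbol in the RefSeq table used (7.00%, against 8.61% of all rows). They are DIRAS2, LPAR1, CHAT, TYR, APOH, HPD and FGB. By identifier, 55 of the 100 rows are zebra finch Ensembl transcripts (45.8% of all rows are), 7 are Ensembl transcripts of other species and 38, the 7 with a symbol included, are RefSeq accessions. No function is given here to a row without a symbol.

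DIRAS2 encodes a small GTPase of the Ras family that is found mainly in brain. Its centred level was 1.91, 3.11, 3.46, 3.30 and 3.27 (log2) in replicates 1 to 5 at 3 h, against 1.27, 1.84, 1.76, 1.73 and 1.71 in the control females. At 8 h it was 2.32, 1.27, 2.14, 2.06 and 1.49. The lowest, median and highest levels were 1.52, 1.98 and 2.54 at 1 h, 1.57, 1.96 and 2.47 at 3 d, 1.70, 1.95 and 2.10 at 7 d, and 1.39, 1.59 and 1.94 at 14 d. Replicate 1 at 3 h lay within the range of the 1 h, 8 h, 3 d, 7 d and 14 d arrays, while replicates 2 to 5 were above every array of the other groups. The score of DIRAS2 was 0.95.

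LPAR1 encodes a receptor for lysophosphatidic acid, a signalling lipid, and in mammalian brain it is prominent in oligodendrocytes, the myelin-forming cells. Its level was -1.26, 1.16, -0.59, -0.04 and 0.10 in replicates 1 to 5 at 3 h, against -1.34, -0.99, -0.54, -1.11 and -1.94 in the controls. At 8 h it was -0.91, -1.32, -1.21, -1.33 and -1.05. Replicate 1 at 3 h was thus at the level of the controls, replicate 3 was just below the highest control, and replicates 2, 4 and 5 were above all other arrays. The lowest, median and highest levels were -1.62, -1.27 and -0.91 at 1 h, -1.26, -1.19 and -0.79 at 3 d, -1.54, -1.32 and -1.15 at 7 d, and -1.82, -1.47 and -1.34 at 14 d. The score was 0.66.

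CHAT encodes choline acetyltransferase, which makes the transmitter acetylcholine. Its level at 3 h was -5.86, -4.99, -5.55, -5.43 and -0.15 in replicates 1 to 5, against a control range of -5.51 to -4.66. Over the 34 arrays of the other groups the highest value was -4.01. Replicate 5 therefore lay far above all other arrays, and the remaining 3 h arrays lay at the level of the other groups, near the lower end of the array's scale. The 3 h mean of CHAT rests on this array: without it the score was -0.66, against 0.70 with it.

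TYR encodes tyrosinase, the enzyme that starts melanin synthesis. Its level was -0.58, -1.39, -1.02, -1.34 and 0.14 in replicates 1 to 5 at 3 h, against -2.24 to -1.24 in the controls. The 34 arrays of the other groups lay between -2.24 and -0.77. Of the 3 h arrays, replicates 1 and 5 were above them, so that here replicate 1 was among the high arrays, unlike in DIRAS2 and LPAR1.

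A further 3 named members make products that the liver secretes or holds: APOH encodes beta-2-glycoprotein I, a plasma protein that binds phospholipids, FGB encodes the beta chain of fibrinogen, the precursor of the clot protein fibrin, and HPD encodes hydroxyphenylpyruvate dioxygenase, which breaks down tyrosine. APOH stood at -0.55, -0.02, -0.06, -0.32 and 0.47 in replicates 1 to 5 at 3 h, against -1.32, -1.57, -0.73, -0.81 and -1.53 in the controls. At 8 h it stood at -0.91, -0.71, -0.91, -0.53 and -0.48. All 3 h arrays were above all controls, and replicates 2 to 5 also above all 8 h arrays. APOH was one of the 15 transcripts that had lost less than 70% of the rise by 8 h.

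The APOH level was lower again at later times. Its lowest, median and highest levels were -2.23, -1.46 and -1.30 at 1 h, -2.28, -1.40 and -0.85 at 3 d, -2.49, -1.86 and -1.53 at 7 d, and -2.10, -1.78 and -1.11 at 14 d. At 7 d it was lower than in controls, with a difference of -0.75 ± 0.23 (SE, log2; limma, Benjamini-Hochberg adjusted p = 0.0224) and means of -1.94 ± 0.33 (SD, n = 6) at 7 d and -1.19 ± 0.40 (SD, n = 5) in controls. This call was lost without control replicate 3, control replicate 4 or 7 d replicate 6, with adjusted p up to 0.0765, and when the title letter entered the fit. It was the single call among the 7 named members in the 6 contrasts that leave the 3 h group out.

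HPD and FGB had their highest 3 h value in replicate 1, the array on which most members were low. HPD stood at -0.11, -3.18, -1.98, -2.64 and -2.26 in replicates 1 to 5 at 3 h, against -3.68 to -2.45 in controls and -4.68 to -3.39 at 8 h. All 34 arrays of the other groups lay between -4.80 and -2.29, and replicates 2 and 4 at 3 h were within this range. FGB stood at -0.09, -3.86, -2.62, -4.49 and -4.44 at 3 h, against -5.71 to -4.34 in controls. Its highest value in any other group was -2.28, in replicate 5 at 8 h, so only replicate 1 at 3 h was above all other groups. When each of the 4 arrays was left out in turn the score of FGB lay between 0.24 and 1.71 and that of HPD between 0.80 and 1.64.

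**Figure D4:**
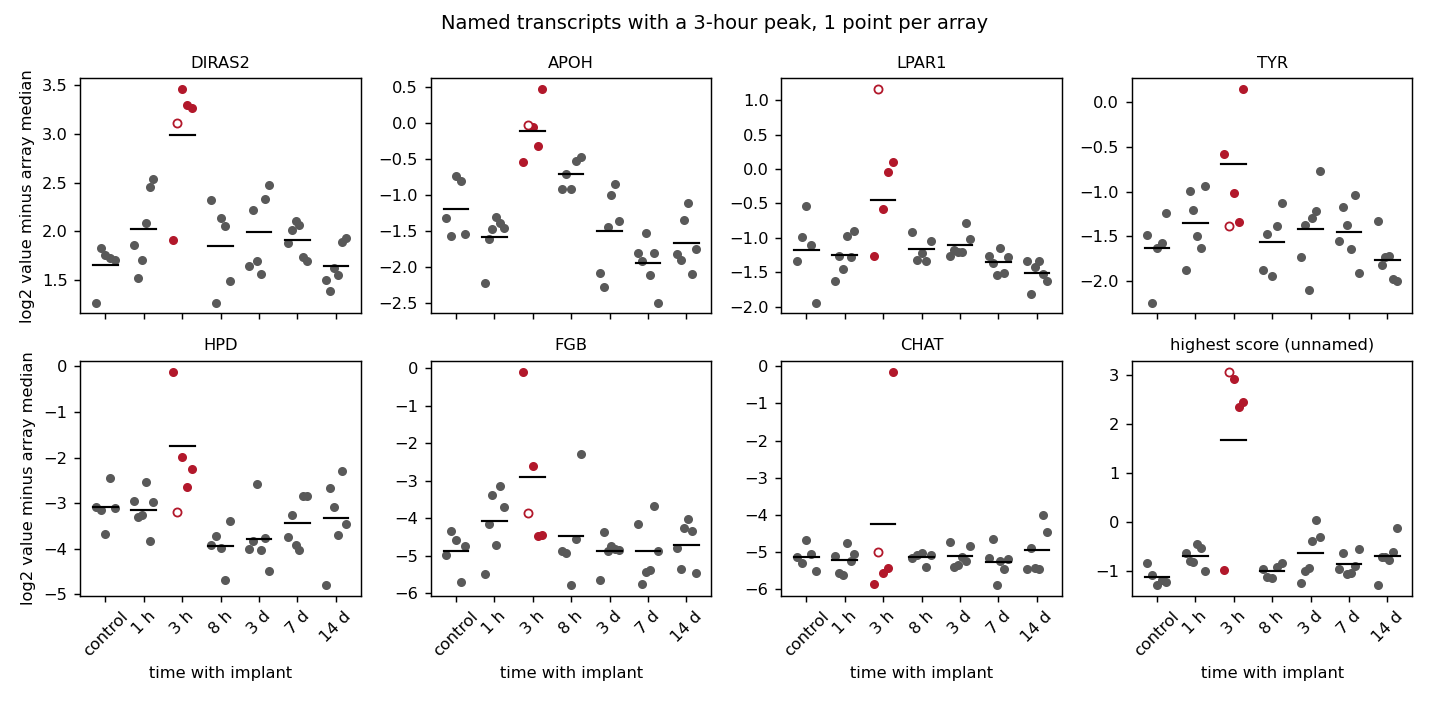
Level minus the array median (log2) of the 7 members with a gene symbol and of the unnamed transcript with the highest score, 1 point per array and by group; 3 h arrays are red, the one left out by the rule is open, and bars are group means without it. At 3 h, DIRAS2 is high in replicates 2 to 5, CHAT in replicate 5 only at -0.15, and HPD and FGB are highest in replicate 1 at -0.11 and -0.09.

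The highest score belonged to ENSTGUT00000001441, at 2.31. Its level was -0.98, 3.06, 2.90, 2.34 and 2.45 in replicates 1 to 5 at 3 h, while the 34 other arrays lay between -1.29 and 0.05. Replicate 1 was among them, and the other 4 arrays, replicate 2 included, were more than 2 above the highest of them. The next score belonged to ENSTGUT00000011180, in which replicate 1 was at the other end of the 3 h arrays. It stood at 2.21, -1.56, -0.43, -2.75 and -2.49 in replicates 1 to 5, and the 34 other arrays lay between -4.05 and -0.93. Here replicate 1 was the highest, and 3 of the 5 arrays at 3 h lay within the range of the other groups.

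The 4 transcripts that followed, chosen for a closer look after their values were seen as were all others without a symbol that are named below, repeated the pattern of the first. In ENSTGUT00000011267 replicate 1 stood at -4.17 and the other 4 arrays at 3 h between -1.50 and -0.78. In XM_002195013 replicate 1 stood at -2.06 and the others between 0.76 and 0.93. In ENSTGUT00000007205 replicate 1 stood at -3.28 and the others between 0.00 and 0.34. Likewise, XM_002189302 had -2.60 in replicate 1 and -0.22 to 0.24 in the others.

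In 5 transcripts all 4 arrays that the rule used were above every array of every other group. XM_002200501 had a lowest 3 h value of 3.07 and a highest value elsewhere of 3.06, at 1 h, with a 3 h mean of 3.64 ± 0.39 (SD, n = 4) and a control mean of 2.63 ± 0.12 (SD, n = 5). ENSTGUT00000003114 averaged -1.62 ± 0.19 at 3 h (SD, n = 4) and -2.47 ± 0.21 in controls (SD, n = 5). NM_001099123 averaged 0.93 ± 0.22 at 3 h (SD, n = 4) and 0.30 ± 0.08 in controls (SD, n = 5). The remaining pair were XM_002195019, with 3 h arrays from -1.51 to -0.31 against controls from -2.69 to -1.92, and ENSTGUT00000012288, with 3 h arrays from 1.97 to 2.68 against controls from 1.41 to 1.74. On replicate 2 at 3 h, 4 of the 5 were above the highest other mean, and XM_002200501 was at -0.83 relative to it.

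The members differed from the average row in spread and in signal. Their SD within the other 6 groups had a median of 0.356, against 0.210 over all rows, and their SD among the 4 arrays at 3 h had a median of 0.645, against 0.147. The score was more than 2 times the SD within the other groups in 65 members, against 0.384% of all rows. Members were chosen by their score, so the rule itself favoured this difference. In the other groups 69 members lay in the lower 50% of rows by array signal, which also depends on the probes, and 42 in the lowest 25%. Signal ranged widely all the same: 11 members lay above the 80th percentile, among them DIRAS2. Members with a weak signal included CHAT and FGB.

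Outside the 3 h group the array with the highest median over the members was replicate 5 at 3 d. Its median was 0.37 above the control mean, 64 members lay above the highest of the 6 group means, and for 25 members it held the highest value of the 34 arrays. All 54 transcripts in which replicate 1 alone fell short at 3 h were above the control mean on this array, with a median of 0.56. The same 54 had medians of 0.09, 1.53, 1.38, 1.28 and 1.61 in replicates 1 to 5 at 3 h. In the next array, replicate 6 at 1 h, 48 members lay above the highest of the 6 group means and 11 had their highest value of the 34 arrays. The counts for these arrays were made over the members only, without the share of all rows. The median over all rows minus the control mean was 0.003 on replicate 5 at 3 d and 0.029 on replicate 6 at 1 h.

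Lists of cell type markers and pathway genes were set beside these values. The liver-enriched list had 9 of 18 genes measured, 3 of them members (APOH, FGB and HPD). Its summed linear level, relative to each array's median, was 5.50, 3.97, 3.10 and 3.93 in replicates 1, 3, 4 and 5 at 3 h and 6.42 in replicate 2, against 2.70 to 2.98 in controls. All 3 h arrays were thus above all controls, but the sum reached 3.18 at 1 h, 3.81 at 8 h and 3.23 at 14 d, above the 3 h array of replicate 4. Since 3 of the 9 genes were chosen for their height at 3 h, this sum is no independent measure. Of the 9 genes, 4 had a score above 0, namely the 3 members and FGG with 0.08. FGA, VTN, F2, ITIH2 and TF had scores from -0.44 to -0.01, and the median score of the list was -0.01. None of the 14 other lists held a member, among them those of immediate early genes (4 of 19 measured), of genes responsive to androgen, estrogen or glucocorticoid (5 of 15), of chaperones (5 of 18) and of the cell cycle (1 of 17). Microglial and red blood cell markers were not measured under a symbol. Members are 100 of 26061 rows, so lists with so few measured genes would mostly hold none, and the lack of members carries no weight. The 5 genes removed by the rule were in none of the lists.

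In the lists linked to the hormone and to neuronal activity no gene reached the 100, which carries no weight with so few genes measured. The median difference between 3 h and control was -0.07 for the immediate early genes, -0.17 for the hormone-responsive genes and -0.09 for the chaperones, against -0.01 over all rows. These medians rest on few genes. The part of cell composition in the members' pattern was not tested.

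The title of each sample ends in a number, and in most cases in a letter L or R whose meaning the labels do not give. At 3 h, replicate 5 carried L and replicates 1, 3 and 4 carried R. At 1 h the 3 arrays with L exceeded the 3 with R by a median of 0.15 over the members, with 75 of 100 higher and 53.0% of all rows higher. At 14 d, again with 3 arrays of each letter, the median was 0.04, with 52 of 100 higher. The 1 h, 3 h, 7 d and 14 d arrays have title numbers in a range of their own, apart from those of the other groups. Against the 3 other groups of that range alone, the 3 h mean was above the highest mean by a median of 0.94. That this held in all 100 members follows from the rule, so it is no check on the title numbers.

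Whether the members also changed at other times was tested with limma across all rows, without the 3 h group in the contrast. At 14 d, 18 of the 100 differed from control at an adjusted p under 0.05 (7 higher, 11 lower), whereas 52.2% of all rows did (25.1% higher, 27.1% lower). At 1 h, 4 members differed (2 higher, 2 lower), against 16.5% of all rows (6.86% higher, 9.65% lower). At 8 h, 3 members differed (1 higher, 2 lower), against 12.9% of all rows (6.71% higher, 6.20% lower). At 7 d, 6 members differed (1 higher, 5 lower), against 15.8% of all rows (6.35% higher, 9.44% lower). In this fit, whose estimate of the spread includes the 3 h arrays, the member counts were below the share of all rows at 1 h, 8 h, 7 d and 14 d. At 3 d, 1 member was higher, against 2.67% of all rows called (1.23% higher, 1.44% lower). Between the mean of 7 d and 14 d and the 1 h group, 1 member was higher, against 1.26% of all rows called (0.372% higher, 0.886% lower). These last counts are too small to set apart from the share of all rows. In fits of the compared groups alone, 32 members were called at 14 d, against 53.7% of all rows, and 5 at 8 h, against 15.3%. In the same fits 12 members were called at 7 d, against 10.7% of all rows, and 3 at 1 h, against 2.37%, so that at these times the members were no longer below the share of all rows. The group means of these contrasts entered the rule through the highest of them, and the spread of the members within groups was larger than that of all rows. The part of either in the counts was not tested.

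**Figure D5:**
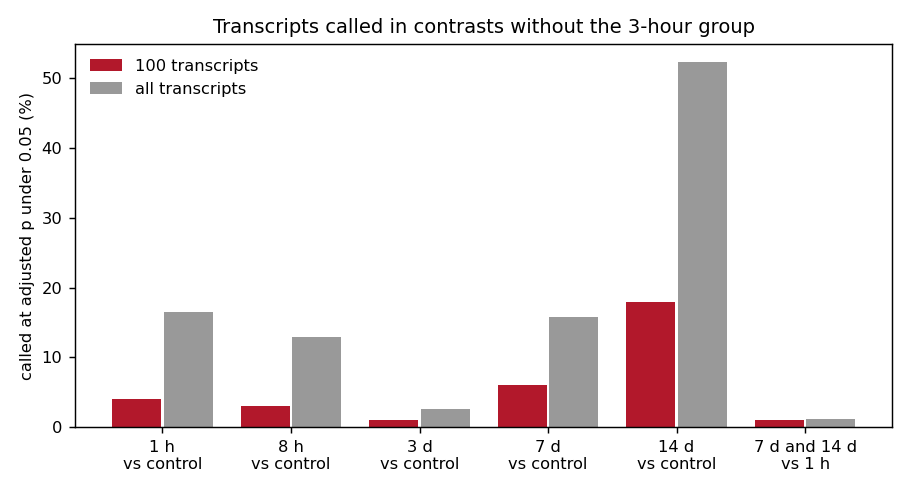
Share of the 100 transcripts (red) and of all rows (grey) called in either direction in each of 6 contrasts without the 3 h group (limma, adjusted p under 0.05), in percent. At 14 d, 18 of the 100 were called, against 52.2% of all rows.

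Of the 33 calls, 15 were kept whichever array of the compared groups was left out, namely 2 at 1 h, 2 at 8 h, 10 at 14 d and 1 between the late groups and 1 h. None of the 6 calls at 7 d and not the call at 3 d was among them. ENSTGUT00000013621 was called in 3 contrasts against control: it was higher by 1.27 ± 0.35 at 8 h (SE; adjusted p = 0.0139, limma), by 1.45 ± 0.33 at 3 d (adjusted p = 0.0139) and by 1.49 ± 0.33 at 14 d (adjusted p = 0.000674). The call at 8 h was lost without control replicate 3 (adjusted p = 0.0693), and the call at 3 d without control replicate 1 or 3 (adjusted p up to 0.0691). Both were lost in a fit of the compared groups alone (adjusted p up to 0.0865), and that at 8 h also with the title letter as a term. Most 8 h arrays carry no letter, so this term can hardly be told apart from the 8 h group. With it 2.80% of all rows were called at 8 h, against 12.9% without it. The transcript was thus above control after the 3 h time, with a mean of 0.64 ± 0.17 at 14 d (SD, n = 6) and -0.84 ± 1.01 in controls (SD, n = 5). At 7 d it was at the control level, with a mean of -0.83 ± 0.54 (SD, n = 6).

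Other members fell below control at the late times. ENSTGUT00000010274 was lower at 14 d, with a difference of -1.52 ± 0.49 (SE; limma, adjusted p = 0.0104) and means of -4.02 ± 0.52 at 14 d (SD, n = 6) and -2.50 ± 0.47 in controls (SD, n = 5). Its value at 7 d was -1.40 ± 0.49 (adjusted p = 0.0467), a call that was lost when any of 10 of the 11 arrays was left out (adjusted p up to 0.119) and under 4 other settings (up to 0.0715). ENSTGUT00000012288, a transcript in which all 4 arrays at 3 h were above all others, was lower than control, with differences of -0.65 ± 0.17 at 8 h (adjusted p = 0.00900, limma) and -0.63 ± 0.16 at 14 d (adjusted p = 0.00191). The 8 h call was lost with the title letter as a term (adjusted p = 0.0653), which can hardly be told apart from the 8 h group. Its 8 h mean was 0.94 ± 0.27 (SD, n = 5) and its control mean 1.59 ± 0.12 (SD, n = 5).

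ENSTGUT00000013383 was lower than control both at 1 h, with a difference of -0.82 ± 0.20 (SE; limma, adjusted p = 0.00688), and at 14 d, with -0.76 ± 0.20 (adjusted p = 0.00236). Its 3 h peak thus stood between a 1 h mean of -1.02 ± 0.43 (SD, n = 6) and an 8 h mean of -0.40 ± 0.10 (SD, n = 5). The reverse was seen in XM_002191947, which was higher than control at 1 h by 1.11 ± 0.30 (adjusted p = 0.0145) and at 14 d by 0.85 ± 0.30 (adjusted p = 0.0193). Its means were -0.24 ± 0.58 at 1 h (SD, n = 6) and -1.36 ± 0.31 in controls (SD, n = 5). They were -1.217 at 8 h and -1.295 at 3 d, near control, and -0.64 at 7 d and -0.50 at 14 d. The higher groups were thus those that share the title-number range of the 3 h group, which cannot be told apart from time. ENSTGUT00000009621 was the member called between the late groups and 1 h, higher in the mean of 7 d and 14 d by 0.97 ± 0.20 (adjusted p = 0.0103). Its means were -0.06 ± 0.31 at 7 d and 0.29 ± 0.24 at 14 d, against -0.85 ± 0.30 at 1 h (SD, n = 6 each).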

How the data were processed

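Each of 39 arrays held HVC RNA of 1 labelled biological replicate. The deposited values are log2 values, 1 per row and array, between 0.77 and 14.1, with array medians of 7.49 to 7.91, a range typical of that scale. Per the submitters' processing notes, affy and Affymetrix Expression Console were the tools (no version); how values were normalised is not given in the sources. Each array was centred on its median. The members and all gene lists were chosen with earlier results of these data known. Named are all members with an official symbol, the 2 highest scores, the 3 rows on each side of the limit, and others said to be chosen after their values were seen. RefSeq accessions in a table of assembly bTaeGut7.mat paired 2471 rows with a gene and 2244 with an official symbol.

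Group means were fitted with limma 3.58.1 (R 4.3.3) to 38 arrays (without 3 h replicate 2) over 26061 rows, two-sided, with Benjamini-Hochberg adjustment per contrast and a threshold of 0.05; the code was tested on simulated data. P-values set a difference against the spread between labelled replicates within groups. This spread was pooled over all 7 groups, the 4 arrays at 3 h included, and in fits of the compared groups alone over those groups only. Alternatives were values as deposited, quantile normalisation, group medians, eBayes with trend and robust options, other choices of arrays and rows, the title letter, the replicate number, fits of the compared groups alone, a stricter threshold and, chosen after seeing the data, removal of the 5 genes after counting. No sequence was used here. The result of 1 marker list is not reported here. Tables were made in pandas 2.3.3 under Python 3.11.15 and plots in matplotlib 3.10.9. The number of arrays limits the precision.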

Additional observations from a re-analysis of the deposited data

Results flagged for a closer look

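In 175 sets, each of the 5 or 6 arrays of 1 group, the highest or lowest array was compared with its neighbours (Dixon's ratio). In 16 of them an array stood apart, where about 1 in 20 sets does so by chance. That rate does not hold for the sets at 3 h, since the transcripts were chosen by their 3 h values, and several were picked after their values were seen, so these are descriptions. Of the 16, 7 concern replicate 1 at 3 h, which was low for DIRAS2 (1.91, the others 3.11 to 3.46), ENSTGUT00000001441 (-0.98, the others 2.34 to 3.06), ENSTGUT00000011267 (-4.17), XM_002195013 (-2.06), ENSTGUT00000007205 (-3.28) and XM_002189302 (-2.60). It was also low for the median of the 100 transcripts minus control, at 0.21, where the others were 1.18 to 1.36.

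Of the other arrays at 3 h, replicate 5 was high for CHAT (-0.15, the others -5.86 to -4.99), and replicate 2 was high for ENSTGUT00000013621 (3.14, the others 1.10 to 1.46) and low for ENSTGUT00000006505 (-0.91, the others 2.69 to 3.62). At 8 h, replicate 5 was high for ENSTGUT00000011180 (-1.25, the others -3.62 to -3.13) and replicate 1 low for ENSTGUT00000006793 (4.46, the others 4.62 to 4.67). Replicate 5 at 3 d was high for ENSTGUT00000010274 (-0.47, the others -2.88 to -2.22). Replicate 1 at 1 h was low for APOH (-2.23, the others -1.61 to -1.30), and control replicate 1 was low for DIRAS2 (1.27, the others 1.71 to 1.84). The median of the 100 transcripts was high in replicate 3 at 14 d (0.024, the others -0.13 to -0.09).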

How the results depend on the processing

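Of the counts over the 100 transcripts, 120 values under an alternative were within 1.5 times the reported count and 30 were not. At an adjusted p under 0.01 the members called were 1 at 1 h, 1 at 8 h, 0 at 3 d, 0 at 7 d, 7 at 14 d and 0 between the late groups and 1 h. The share of all rows was 4.19%, 5.32%, 0.618%, 5.90%, 35.4% and 0.311% in the same order. At an unadjusted p under 0.05 the members were 8, 9, 2, 13, 23 and 12, and the share of all rows was not counted. The 6 calls at 7 d (15.8% of all rows) became 3 after quantile normalisation (15.0%) and 2 with replicate 2 at 3 h in the fit (7.79%). They became 3 of 61 members without the dimmest 25% of rows (21.3% of the rows kept). With the title letter as a term they became 3 (10.5%), and in a fit of the compared groups alone 12. In the fits of the compared groups alone the share of all rows called at 7 d was 10.7%, below that of the members. Those fits gave 5 at 8 h (15.3% of all rows), 0 at 3 d (0.963%), 32 at 14 d (53.7%), 2 between the late groups and 1 h (0.672%) and 3 at 1 h (2.37%). Without the dimmest rows 2 of 61 members were called at 1 h, against 22.6% of the rows kept. With each array left out in turn the counts were 2 to 6 at 1 h, 2 to 3 at 8 h, 0 to 1 at 3 d, 1 to 6 at 7 d, 12 to 20 at 14 d and 1 throughout between the late groups and 1 h. The 7 d count fell to 1 without control replicate 4 (9.62% of all rows) or 7 d replicate 6 (8.96%). It fell to 2 without control replicate 3 (13.8%) or 5 (9.04%) and to 3 without control replicate 1 (11.8%) or 7 d replicate 4 (19.6%). The 1 h count fell to 2 without control replicate 1, and the 3 d call was lost without control replicate 1 or 3. Transcripts with all arrays at 3 h above all others numbered 9 in the values as deposited, 3 without the dimmest rows and 3 with replicate 2 added. Without the dimmest rows 61 members remained, 54 of them above the highest other mean on replicate 2. With each of the 4 arrays at 3 h left out in turn, 74 to 88 members kept a place among the 100 highest scores, the fewest without replicate 5. Without that array 96 of the 100 had a score above 0. When replicate 2 was added, so that all 5 arrays at 3 h entered the mean, 71 members kept such a place. The score of CHAT was -0.66 without replicate 5 and up to 1.24 without another of the 4 arrays. The cause of these changes was not tested.

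The replicate number as a block gave 5, 3, 1, 6, 21 and 1 calls among the members at 1 h, 8 h, 3 d, 7 d, 14 d and between the late groups and 1 h. The share of all rows was 15.7%, 12.5%, 2.56%, 14.8%, 52.0% and 1.07% in the same order. Deviations of arrays with the same number had a median correlation of 0.0109 (-0.691 to 0.381, 105 pairs), against 0.00121 for other numbers, so the numbers were not taken to pair the arrays.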
